A study of Mus musculus with 32 samples.

Results

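The T cell receptor alpha variable segments are the 128 genes of the deposited tables whose symbol starts with Trav, of 35968 genes in all. Of these, 108 are annotated as functional segments and 20 as pseudogenes. Their estimated counts were summed per segment in each library and expressed as a percentage of all Trav counts of that library, here called the share. The RNA came from T cells that were sorted out of the livers and spleens of male C57BL/6 mice carrying Foxp3GFP, a reporter that marks cells expressing Foxp3. The gate for regulatory T cells (Treg) was TCRb+CD4+Foxp3+, and that for conventional T cells (Tconv) was TCRb+CD4+Foxp3-. The mice were controls or had been treated with carbon tetrachloride (CCl4), a chemical that injures the liver, and the labels give no age, dose or duration. Each of the 4 populations (liver Treg, liver Tconv, spleen Treg and spleen Tconv) has 3 control and 5 CCl4 libraries, 32 in all and 8 groups. Whether each library of a group is its own animal is not given in the labels, so p-values measure the spread between these samples, which may be technical.

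A T cell builds the alpha chain of its receptor by joining 1 V segment to 1 J segment, and the joined exon is spliced to the constant region Trac. The V segment supplies the leader and most of the variable domain, including the first loops that touch the presenting molecule. A population of many unrelated clones spreads its alpha chain RNA over many V segments, whereas expansion of a clone raises the share of the segment that the clone carries. A few T cell types use a fixed alpha chain: invariant natural killer T (NKT) cells, abundant in mouse liver, join Trav11 to Traj18 and recognise lipids on CD1d, and mucosal-associated invariant T (MAIT) cells join Trav1 to Traj33 and recognise vitamin B2 metabolites on MR1. Both types need the transcription factor Zbtb16 (PLZF).

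All 128 segments lie on the plus strand of chromosome 14 between 52427928 and 53977678 (GRCm38), over 1549.75 kb. They fall into 23 families. The mouse array contains duplicated blocks, and 39 symbols carry the letter d and 34 the letter n for such copies. The copies limit what short reads can tell apart: 40 segments have no 31-base word of their own in the GENCODE M21 transcripts of the segments, 51 have under 10% of their words to themselves, and 31 have over 50%. Trav11 (ENSMUSG00000096615, exons 53519303 to 53519354 and 53519569 to 53519859) and Trav11d (ENSMUSG00000095088, exons 52824357 to 52824408 and 52824623 to 52824912) are the extreme case. Trav11n (ENSMUSG00000106259, exons 53135122 to 53135173 and 53135388 to 53135678) is annotated as a pseudogene. The sequences of the segments on which the main differences turn are given here, 5′ to 3′, from the GENCODE M21 coding sequences, with positions counted from 1 at the A of the start codon. For Trav11 and Trav11n bases 101 to 343 are shown. In Trav11 the capital is its last base, at position 343, which is absent from the 342-base Trav11d. The coding sequences of Trav11 and Trav11d are otherwise identical. Trav11n differs from Trav11 at 8 positions, C10T, C33T, T105C, C138G, C201A, G217C, T240C and A266G with the base of Trav11 first, and those in the stretch shown are in capitals.
Trav11: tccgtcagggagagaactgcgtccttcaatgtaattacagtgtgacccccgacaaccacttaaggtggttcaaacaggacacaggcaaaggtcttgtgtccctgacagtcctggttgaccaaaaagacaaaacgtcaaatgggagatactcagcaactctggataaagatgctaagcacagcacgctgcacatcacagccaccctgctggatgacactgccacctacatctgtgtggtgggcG
Trav11n: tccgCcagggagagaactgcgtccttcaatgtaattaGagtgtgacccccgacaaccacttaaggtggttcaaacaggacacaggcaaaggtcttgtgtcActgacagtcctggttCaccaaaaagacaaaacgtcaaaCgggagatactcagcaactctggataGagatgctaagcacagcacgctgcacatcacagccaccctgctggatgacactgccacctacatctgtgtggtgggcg
The counts of Trav11 and Trav11d cannot be told apart, and kallisto placed them in Trav11 in 30 libraries and in Trav11d in 2 (liver Treg CCl4 sample 2 and spleen Treg control sample 3). They were therefore summed, and the sum is called the Trav11 pair.

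A second set of copies carries the CCl4 difference of smallest adjusted p in liver Treg. Trav7-4 (ENSMUSG00000094766, exons 53461099 to 53461257 and 53461447 to 53461738) and Trav7d-4 (ENSMUSG00000094023, exons 52769753 to 52769911 and 52770101 to 52770392) differ at 2 of 341 bases, C20T and A207C with the base of Trav7-4 first. Bases 1 to 220 are shown, with these positions in capitals.
Trav7-4: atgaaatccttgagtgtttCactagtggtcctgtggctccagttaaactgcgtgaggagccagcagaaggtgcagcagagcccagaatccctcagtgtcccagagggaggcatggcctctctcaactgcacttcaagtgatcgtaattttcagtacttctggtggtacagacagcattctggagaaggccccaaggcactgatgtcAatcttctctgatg
Trav7d-4: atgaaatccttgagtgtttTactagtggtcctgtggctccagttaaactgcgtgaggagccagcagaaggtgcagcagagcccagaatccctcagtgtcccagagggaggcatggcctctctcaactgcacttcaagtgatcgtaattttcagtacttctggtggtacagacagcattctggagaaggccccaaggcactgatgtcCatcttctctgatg
The pair shares 85.3% of its 31-base words, and 11.4% of those of Trav7-4 are its own. Trav7n-4 differs from Trav7-4 at 7 positions and has 31.8% of its words to itself. Trav14d-1 and Trav14n-1 are identical to each other, as are Trav4d-4 and Trav4n-4, so the members of each of these pairs hold the same value and are named together.

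Libraries held between 24513124 and 75292019 estimated counts, and between 9341 and 29121 of these fell on Trav segments. A share of 1% then has an exact 95% binomial interval of 0.804% to 1.22% at the lowest Trav depth and of 0.888% to 1.12% at the highest, for counting error only, since the reads carry no molecular identifiers. Foxp3, which defined the sort, averaged 973 to 1061 CPM (gene counts scaled to a common library size) in the Treg groups and 0.976 to 2.89 CPM in the Tconv groups, and Cd4 averaged 522 to 1009 CPM over all groups. In the fit across all genes, 17159 genes passed a filter on low counts, among them 108 Trav segments. These are not the 108 functional segments, since 5 of them are annotated as pseudogenes. The 20 segments that did not pass together held at most 0.732% of the Trav counts of any library. The test was edgeR's quasi-likelihood test with Benjamini-Hochberg adjustment over all 17159 genes, and the word called stands for an adjusted p under 0.05. Fold changes are log2 values with standard errors (SE), on 2 scales: the CPM scale, relative to all RNA of the library, and the share scale, relative to all Trav counts of the library. Since the adjustment runs over all genes, the adjusted p of a segment also depends on how many genes have small p-values. In liver Tconv under CCl4, 0.519% of genes were higher and 21.7% lower on the share scale, against 0.146% and 0.181% on the CPM scale. A call on the share scale alone can come partly from this, and how far it does was not tested. In bulk libraries, fewer cells of a type and less RNA per cell cannot be told apart.

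Alpha chain RNA was spread over many segments. Averaged over the 8 groups, 34 segments had a share above 1% and 25 had a share below 0.1%, and the 10 largest shares summed to 28.7%. Per length, on the deposited TPM as a percentage of summed Trav TPM, Trav7d-2 led with 4.72%, followed by Trav7-4 with 4.09% and Trav9-1 with 4.03%. Trav14d-1 and Trav14n-1 followed with 2.28% each. Per length, Trav7d-2 was the leading segment in 20 libraries, Trav7-4 in 6 and Trav11 in 3, the liver Tconv controls. By counts, which are not divided by length, Trav7-4 led in 18 libraries, so the order of segments within a library depends on the unit. It also depends on whether copies are summed by symbol, which also joins segments that differ in sequence. With copies summed, Trav14-3 led liver Tconv control sample 1 (6.75%), Trav11 sample 2 (12.8%) and Trav14-1 sample 3 (6.78%), by counts. Comparisons below are therefore between libraries for the same segment.

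The Trav11 pair, the V segment of the invariant NKT receptor, was far more abundant in liver Tconv of control mice than in any other population. Its share was 4.79%, 12.6% and 5.75% in the 3 control libraries of liver Tconv. In the 5 CCl4 libraries of liver Tconv it was 0.957%, 1.30%, 1.21%, 1.72% and 1.26%. Every control library was above every CCl4 library, and the lowest control value was over the highest CCl4 value by more than the whole CCl4 range. The mean fell by 6.42 percentage points, from 7.71% ± 4.24 (SD, n = 3) to 1.29% ± 0.277 (SD, n = 5), with a two-sided exact permutation p of 0.0179, the smallest that 56 splits allow, and 0.0476 after adjustment over the 8 comparisons. The control mean was 5.98 times the CCl4 mean. Control sample 2 raised the difference: without it the share fell by 3.98 percentage points, and the adjusted p without any 1 library of this comparison ran from 0.0762 to 0.105, where the fewer libraries also raise the smallest p allowed to 0.0286 or 0.0476. Behind the control shares stood 448, 3170 and 1216 counts.

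Relative to all RNA the Trav11 pair averaged 28.8 ± 15.0 CPM in control and 6.53 ± 2.21 CPM in CCl4 liver Tconv, with control values from 18.2 to 46.0 and CCl4 values from 3.76 to 9.90. Copies were also summed before the fit, by symbol and not by sequence, which adds Trav11n to the Trav11 pair. Not all copies joined in this way are near-identical. Of the words of Trav14-1, 67.5% are its own, and of those of Trav7-5, 74.3%. The log2 fold change of Trav11 was then -2.03 (SE 0.35, adjusted p = 0.0139) on the CPM scale and -2.46 (SE 0.31, adjusted p = 0.000134) on the share scale. Fitted alone, with its counts placed in Trav11d in 2 Treg libraries, Trav11 had -2.14 (SE 0.64, adjusted p = 0.134) on the CPM scale and -2.58 (SE 0.63, adjusted p = 0.0132) on the share scale. The pseudogene copy Trav11n stayed between 0.040% and 0.239% of Trav counts in every library.

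In the other populations the Trav11 pair was low under both conditions. Spleen Tconv held 0.926%, 1.26% and 1.08% in control and 1.17%, 0.995%, 1.51%, 1.72% and 1.14% in CCl4 libraries, which overlap (exact permutation p = 0.321). Liver Treg held 0.961%, 0.544% and 0.574% in control and 0.274%, 0.190%, 0.620%, 0.586% and 0.155% in CCl4 libraries, also overlapping (exact permutation p = 0.125). Spleen Treg held 0.570%, 0.362% and 0.652% in control and 0.385%, 0.386%, 0.469%, 0.543% and 0.388% in CCl4 libraries (exact permutation p = 0.25). In order of the control means the groups were liver Tconv, spleen Tconv with 1.09% ± 0.165, liver Treg with 0.693% ± 0.232 and spleen Treg with 0.528% ± 0.149 (SD, n = 3 each), and the control ranges of spleen Tconv and liver Treg overlap, as do those of liver Treg and spleen Treg. Under CCl4 the liver Tconv values lay in the range of spleen Tconv, whose CCl4 mean was 1.31% ± 0.299 (SD, n = 5).

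**Figure D1:**
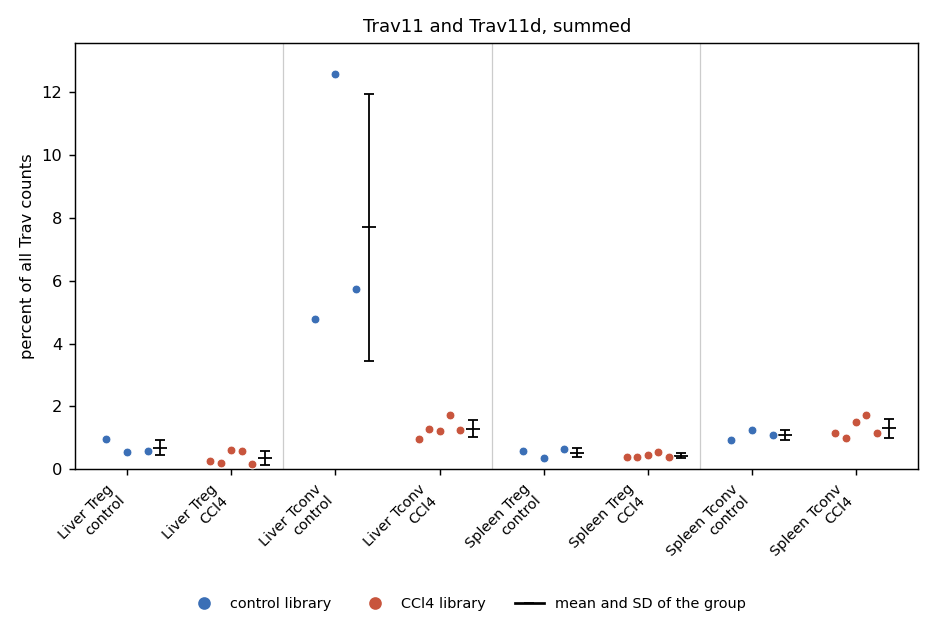
Share of the Trav11 pair (summed counts of Trav11 and Trav11d as a percentage of all Trav counts, vertical axis) in each of the 32 libraries (points), by group (horizontal axis), with the group mean and SD. The 3 liver Tconv control libraries sit between 4.79% and 12.6%, and every other library is at or under 1.72%.

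Whether the CCl4 difference of Trav11 itself differed between populations was tested as a difference of log2 fold changes with copies summed. This sum is the Trav11 pair plus Trav11n. Liver Tconv minus spleen Tconv gave -2.31 (SE 0.51, adjusted p = 0.0765) on the CPM scale, which was not called, and -2.67 (SE 0.45, adjusted p = 0.0223) on the share scale, which was. Liver Treg minus liver Tconv gave 2.08 (SE 0.52, adjusted p = 0.0171) on the CPM scale and 1.79 (adjusted p = 0.032) on the share scale. Over both treatments the share of the Trav11 pair was lower in Treg than in Tconv by 3.97 percentage points in liver and by 0.716 in spleen (exact permutation p = 0.000397 each, the smallest that 5040 splits allow, adjusted p = 0.00159). Liver Tconv exceeded spleen Tconv by 3.30 percentage points, with an adjusted exact permutation p of 0.105. On the CPM scale that last difference was called, with a log2 fold change of 1.23 for Trav11 alone (SE 0.47, adjusted p = 0.0277) and of 1.18 with copies summed (adjusted p = 0.00025). The call for Trav11 alone was lost without liver Tconv control sample 2 (0.97, adjusted p = 0.113) and without spleen Tconv control sample 1 (adjusted p = 0.0623) or 3 (adjusted p = 0.0545). The contrasts between tissues and between cell types average both treatments. In control the mean share was 7.71% in liver Tconv, 1.09% in spleen Tconv and 0.693% in liver Treg. Under CCl4 it was 1.29%, 1.31% and 0.365%, so liver and spleen Tconv were then alike.

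Of 17 other genes listed as markers of invariant NKT cells, 1 was lower in liver Tconv under CCl4 and none was higher, against 0.181% and 0.146% of all genes tested. That gene was Zbtb16, the PLZF factor of innate-like T cells, which averaged 25.1 ± 10.7 CPM in control libraries (15.1 to 36.3) and 3.78 ± 1.82 CPM in CCl4 libraries (2.36 to 6.96). Its log2 fold change was -2.73 (SE 0.61, adjusted p = 0.0408), and its groups do not overlap, as for the Trav11 pair. Klrb1c, which encodes NK1.1, averaged 8.10 CPM in control and 1.83 CPM in CCl4 liver Tconv (-2.15, adjusted p = 0.0619). Cd160, a receptor of innate-like and activated T cells, averaged 36.2 and 13.7 CPM (-1.41, adjusted p = 0.159). Traj18, the J segment that invariant NKT cells join to Trav11, averaged 4.59 ± 0.477 CPM in control and 4.24 ± 0.933 CPM in CCl4 liver Tconv (-0.11, adjusted p = 0.894), and Cxcr6, Il2rb and Tbx21 had log2 fold changes of -0.05, 0.04 and -0.09. The summed level of the 17 markers ran from 1765 to 2928 CPM in control and from 1674 to 2902 CPM in CCl4 liver Tconv, and none of them was at 0 there.

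Over the 16 Tconv libraries, 9628 genes reached a mean of 5 CPM, and the gene whose CPM followed the Trav11 pair most closely was Zbtb16 (Pearson r = 0.867), and next Mup7 with 0.863 and Mup19 with 0.758, which encode major urinary proteins made by hepatocytes. Hdlbp, a lipoprotein-binding RNA-binding protein, had 0.752, and Atp6v0d1, a subunit of the vacuolar proton pump, 0.750. These correlations are descriptions that rest on the 3 liver control libraries: without them, over 13 libraries, r was -0.243 for Zbtb16, 0.50 for Mup7 and 0.524 for Mup19. Mup7 averaged 37.1 CPM in control and 1.42 CPM in CCl4 liver Tconv, and Mup19 29.3 and 0.846 CPM. The summed level of the 3 hepatocyte markers listed here ran from 47.0 to 126 CPM in control and from 56.1 to 222 CPM in CCl4 liver Tconv, and was under 1 CPM in spleen. The part of hepatocyte RNA in the Trav11 values was not tested.

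Trav1, the V segment of the invariant MAIT receptor, did not follow the Trav11 pair. In liver Tconv its share was 0.332%, 0.563% and 0.554% in control libraries. The CCl4 libraries of liver Tconv held 0.836%, 0.402%, 0.303%, 0.634% and 0.921%, which overlap the controls on both sides. The other populations lay between 0.227% and 1.28%, and Trav1 was not called on the CPM scale in any of the 8 comparisons. On the share scale it was higher in Treg than in Tconv of spleen by a log2 of 0.83 (SE 0.27, adjusted p = 0.0148), against 0.49 (adjusted p = 0.176) on the CPM scale. Of 6 other MAIT markers, 1 was lower and none higher in liver Tconv under CCl4, against 0.181% and 0.146% of all genes, and it was again Zbtb16, which both lists hold.

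Liver Treg showed the other large CCl4 difference, in Trav7-4 and its copies and in Trav3-4. Trav7-4 held 5.36%, 6.28% and 4.96% of Trav counts in the 3 control libraries of liver Treg and 10.5%, 8.15%, 11.8%, 14.2% and 11.6% in the 5 CCl4 libraries. All CCl4 libraries were above all controls, and their own values differed by more than those of the controls. The log2 fold change was 1.73 (SE 0.20, adjusted p = 4.61e-07) on the CPM scale and 1.03 (SE 0.16, adjusted p = 9.78e-06) on the share scale. Trav7d-4 rose from 1.61%, 2.00% and 1.46% to 2.54%, 4.02%, 4.53%, 5.42% and 6.88% (2.15, SE 0.51, adjusted p = 0.00395 on the CPM scale, and 1.47, adjusted p = 0.0125, on the share scale). Trav7n-4 rose from 0.329%, 0.344% and 0.337% to 0.509%, 3.01%, 1.22%, 1.05% and 0.649% (2.51, SE 0.48, adjusted p = 0.00043, and 1.93, adjusted p = 0.00162). Given the 2 bases that separate Trav7-4 from Trav7d-4, how the counts split between these copies is uncertain. Summed, the 3 copies held 7.30%, 8.62% and 6.76% in control and 13.5%, 15.2%, 17.6%, 20.7% and 19.2% in CCl4 libraries, with log2 fold changes of 1.88 (adjusted p = 8.13e-06) on the CPM scale and 1.19 (adjusted p = 0.000184) on the share scale.

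Trav3-4 (gene span 53776956 to 53777576 on chromosome 14) went from 0.254%, 0.339% and 0.499% in control liver Treg to 4.74%, 1.64%, 2.00%, 4.28% and 3.57% under CCl4. Its words are 68.5% its own, and no CCl4 library overlapped the controls. The log2 fold change was 3.84 (SE 0.70, adjusted p = 0.000225) on the CPM scale and 3.16 (SE 0.64, adjusted p = 0.000195) on the share scale. In liver Tconv the same segment held 0.188%, 0.173% and 0.291% in control and 0.893%, 3.35%, 0.209%, 0.287% and 0.520% in CCl4 libraries, so that groups overlap and 1 library, CCl4 sample 2, stands above the rest. Its log2 fold change there was 2.63 (SE 0.66, adjusted p = 0.0711) on the CPM scale and 2.25 (adjusted p = 0.0189) on the share scale. In spleen Tconv Trav3-4 lay between 0.155% and 0.293% in all 8 libraries.

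**Figure D2:**
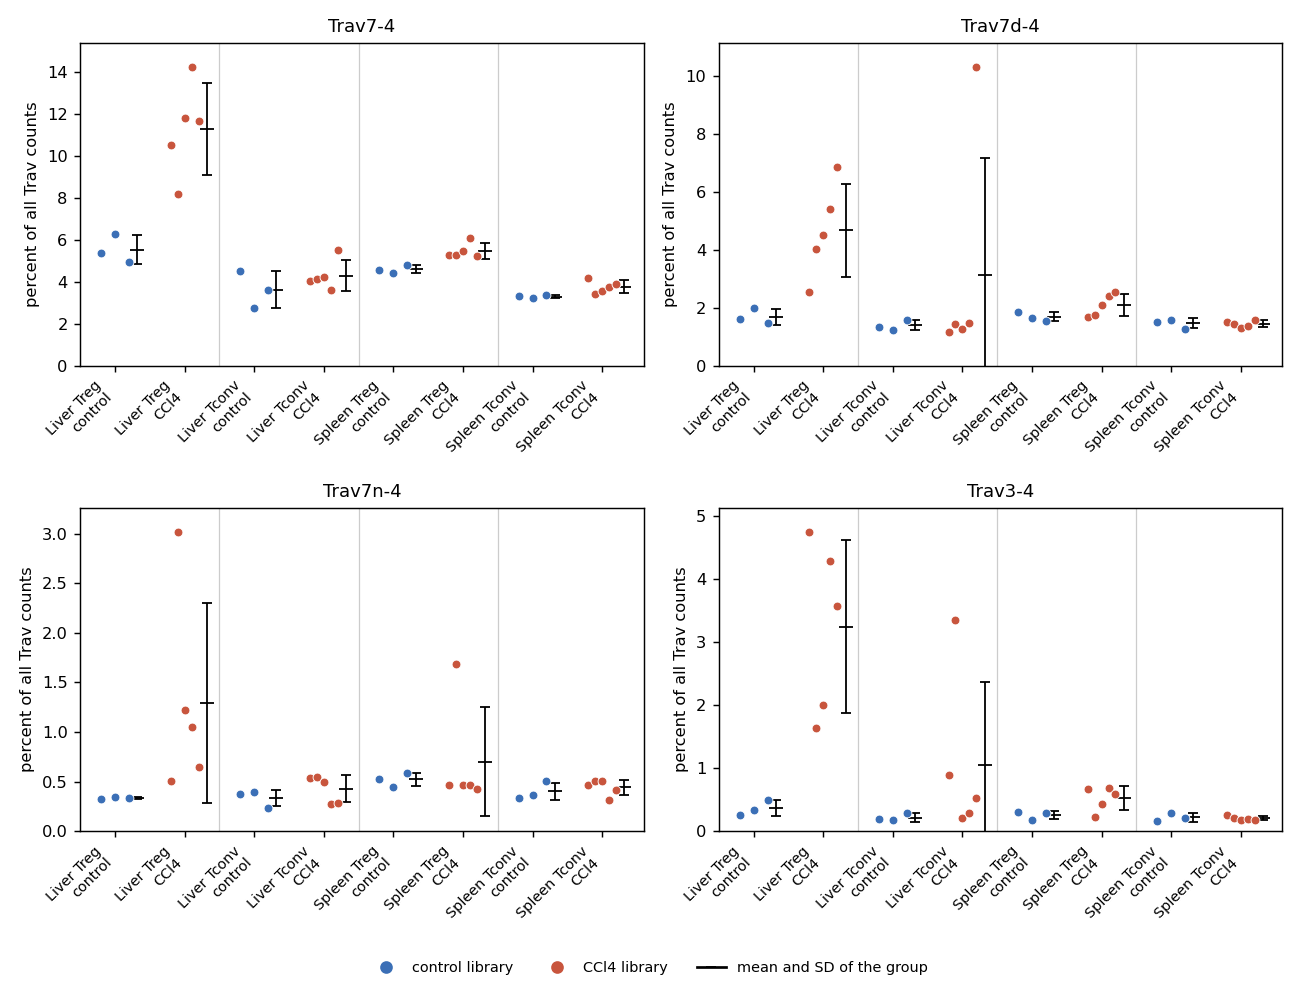
Shares of Trav7-4, Trav7d-4, Trav7n-4 and Trav3-4 (percentage of Trav counts, vertical axes) in each library (points), by group (horizontal axes), with group means and SD, where a bar reaching below 0 ends at the axis. The 5 liver Treg CCl4 libraries stand above the 3 liver Treg controls in each panel, and liver Tconv CCl4 sample 5 stands alone for Trav7d-4 at 10.3%.

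In spleen Treg the difference was smaller and not called on either scale. Trav7-4 held 4.55%, 4.42% and 4.79% there in control and 5.29%, 5.26%, 5.45%, 6.10% and 5.23% in CCl4 libraries (0.22, adjusted p = 0.672 on the CPM scale). These groups do not overlap in share, though they do in CPM, and the gap is small beside that in liver. In spleen Tconv every CCl4 library was also above every control for Trav7-4, in share and in CPM, and it was not called on either scale. In liver Tconv Trav7-4 held 4.51%, 2.75% and 3.62% in control and 4.01%, 4.12%, 4.24%, 3.58% and 5.51% in CCl4 libraries (0.63, adjusted p = 0.154). The CCl4 effect on Trav7-4 was larger in liver Treg than in liver Tconv by a log2 of 1.10 (SE 0.27, adjusted p = 0.0169) on the CPM scale, where 1 of 108 segments was called higher against 1.88% of all genes. This difference was not called on the share scale (0.78, adjusted p = 0.0541) or with copies summed (0.95, adjusted p = 0.146). The difference of the CCl4 effect between liver Treg and spleen Treg was not tested.

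On the CPM scale 16 of 108 segments were higher and none was lower in liver Treg under CCl4, while 7.55% of all genes tested were higher and 7.34% lower. The median log2 fold change of the segments was 0.46, against -0.00 for all genes. On the share scale 4 segments were higher and 14 lower, with a median of -0.20. The median of all genes moved to -0.65 on that scale, with 1.36% of them higher and 52.2% lower. The 4 higher segments were Trav7-4, Trav7d-4, Trav7n-4 and Trav3-4. Shares are parts of a fixed whole, so a rise of these segments lowers the shares of others. How far the 14 lower calls come from this was not tested. Segments that were called on the CPM scale and not on the share scale include the pair Trav4d-4 and Trav4n-4 (0.74, SE 0.16, adjusted p = 0.00172, and 0.07, adjusted p = 0.702) and Trav10 (1.21, SE 0.34, adjusted p = 0.0144, and 0.51, adjusted p = 0.11). The call of Trav10 was lost without CCl4 sample 4 (0.79, adjusted p = 0.071), and without control sample 1 (adjusted p = 0.0885) or 2 (adjusted p = 0.0778). Among the segments whose share fell were Trav8d-1 (-0.89, adjusted p = 0.0021), Trav9n-1 (-1.39, adjusted p = 0.0087), Trav3-3 (-0.53, adjusted p = 0.0058) and Trav6-5 (-0.65, adjusted p = 0.0228). Of these, Trav9n-1 is annotated as a pseudogene. Without control sample 1 of liver Treg 10 segments were called on the CPM scale, and without control sample 2, 9.

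The 2 scales differ because total Trav RNA was higher in these libraries. Before TMM, Trav segments summed to 299, 273.5 and 357 CPM in control liver Treg and 524, 387, 522, 567 and 457 under CCl4, without overlap. In liver Tconv they held 362, 337 and 359 in control and 372, 483, 494, 552 and 443 under CCl4, again without overlap, and the median segment moved by 0.47 on the CPM scale. Spleen groups overlapped: 367 to 454 and 338 to 479 in Treg, and 476 to 499 and 441 to 528 in Tconv. Trac, the constant region, rose in liver Treg from 1183 ± 188 to 1453 ± 131 CPM (0.30, adjusted p = 0.0299), and in liver Tconv it was 1484 ± 108 and 1375 ± 77.5 CPM. The ratio of Trav to Trac counts averaged 0.258 and 0.325 in control and CCl4 liver Treg and 0.255 and 0.362 in liver Tconv.

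Use of segments was less even in liver Treg under CCl4. The effective number of segments, the number of equally used segments that would give the same concentration of counts (inverse Simpson index), was 59.8, 55.1 and 58.5 in control liver Treg. Under CCl4 it was 41.9, 43.9, 36.3, 27.4 and 33.1, every value below every control. Spleen libraries of both cell types lay between 52.3 and 59.7. In liver Tconv it was 55.8, 34.8 and 54.6 in control and 65.0, 60.0, 59.9, 57.2 and 36.7 under CCl4: the low control is sample 2, in which Trav11 held 12.6%, and the low CCl4 library is sample 5, in which Trav7d-4 held 10.3%. Near-identical copies count as separate segments in these numbers. Summing by symbol joins such copies, but it also joins segments that are not near-identical. With copies summed, the effective number was 27.1 to 29.6 in control liver Treg, 15.1 to 23.2 under CCl4 and 23.4 to 28.3 in spleen. The highest liver Treg CCl4 value then lies just under the lowest spleen value. These values are descriptions with no test.

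**Figure D3:**
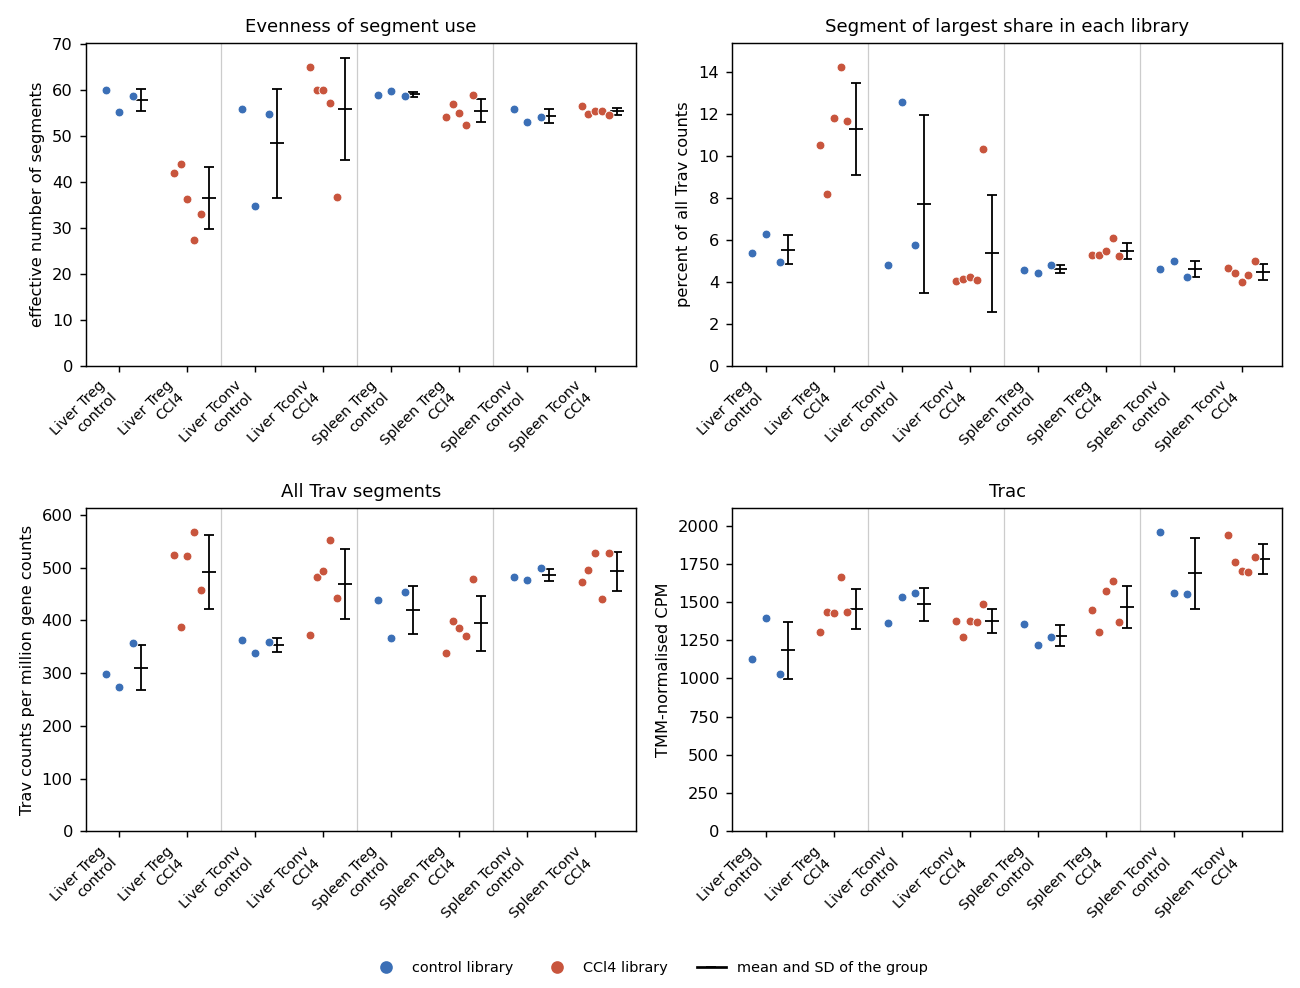
Effective number of Trav segments, share of the leading segment (percentage of Trav counts), summed Trav CPM before TMM and Trac (CPM) in each library (points), by group, with group means and SD. The 5 liver Treg CCl4 libraries lie between 27.4 and 43.9 effective segments, below the 3 controls at 55.1 to 59.8, and above them in summed Trav CPM.

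Of 22 tested genes of a list of the receptor complex and its signalling, 3 rose and 4 fell in liver Treg under CCl4, against 7.55% and 7.34% of all genes. Trac, Cd3g, which encodes the CD3 gamma chain (0.30, adjusted p = 0.0162), and the adaptor Lcp2 (0.30, adjusted p = 0.0203) rose. Trbc2, a beta chain constant region (-0.38, adjusted p = 0.00136), Trbc1 (-0.23, adjusted p = 0.0487), the adaptor Lat (-0.36, adjusted p = 0.0118) and Dntt, the terminal transferase that adds bases at junctions during rearrangement (-3.61, adjusted p = 7.29e-05), fell. So the constant region of the alpha chain rose while both of the beta chain fell. Markers of gamma delta T cells, of which 0 rose and 3 of 8 fell in liver Treg (7.55% and 7.34% of all genes), summed to a median of 8.54 CPM in control (lowest 7.74) and to at most 5.78 CPM in CCl4 libraries. Hepatocyte markers summed to 22.7 to 44.2 CPM and 2.88 to 176 CPM in the same groups. Their part in the Trav values was not tested.

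In liver Tconv under CCl4, 3 segments were higher and none lower on the CPM scale, against 0.146% and 0.181% of all genes. They were the identical pair Trav4d-4 and Trav4n-4 and the segment Trav7-5. With copies summed, 0 of 49 groups were higher and 1 was lower, which was Trav11, against 0.31% of all genes called in either direction. Trav4d-4 held 1.00%, 1.03% and 1.21% in control and 1.60%, 1.33%, 1.43%, 1.42% and 1.35% in CCl4 libraries (0.78, SE 0.16, adjusted p = 0.0335 on the CPM scale, and 0.40, adjusted p = 0.053, on the share scale). Trav7-5 held 1.17%, 1.25% and 1.16% in control and 1.88%, 1.70%, 1.63%, 2.81% and 1.20% in CCl4 libraries (1.05, SE 0.24, adjusted p = 0.0445, and 0.63, adjusted p = 0.0389). Neither call held when any 1 of the 3 controls or CCl4 sample 4 was left out, with adjusted p of 0.0842 to 0.106 for Trav4d-4 and of 0.0901 to 0.229 for Trav7-5. The call of Trav7-5 was also lost without CCl4 sample 2 (adjusted p = 0.0551). On the share scale, where the median of all genes moved to -0.38, Trav3-4 and Trav7-5 were higher and Trav11 and Trav14-1 lower (0.519% and 21.7% of all genes). Trav14-1 held 2.01%, 3.63% and 2.32% in control and 1.73%, 1.90%, 1.79%, 1.27% and 1.22% in CCl4 libraries (-0.75, adjusted p = 0.0174).

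Some segments stood out in a single library of a CCl4 group. Among groups of 5 libraries, a segment with a share of at least 1% and at least 2.5 times that of the next library was found 5 times. Trav7d-4 held 10.3% in liver Tconv CCl4 sample 5 (exact 95% interval 9.82% to 10.9%) and 1.17% to 1.47% in the other 4 libraries, a ratio of 7.04 to the next. Trav3-4 held 3.35% in liver Tconv CCl4 sample 2 (0.209% to 0.893% in the others), and Trav7n-4 held 1.69% in spleen Treg CCl4 sample 2 (0.426% to 0.464%). Trav8d-2 with 1.37% (0.314% to 0.476%) and Trav8-1 with 1.14% (0.310% to 0.373%) stood out in liver Treg CCl4 sample 1. With copies summed, only Trav3-4, at the same value, and Trav7-4 met this rule. The Trav7-4 copies together held 16.1% in liver Tconv CCl4 sample 5 (5.32% to 6.10% in the others), a ratio of 2.64 to the next.

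In spleen no segment was called under CCl4 by edgeR in Treg (1.18% of all genes) or in Tconv (1.07% of all genes). At an unadjusted p under 0.05 there were 2 segments in Treg and 0 in Tconv, and DESeq2 also called 0 and 0. The median log2 fold change of the segments was -0.07 in spleen Treg and 0.07 in spleen Tconv, against 0.00 for all genes in both.

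The Trav14 family held a smaller share in liver than in spleen. In spleen Tconv Trav14 segments together held 23.1% ± 0.551 of Trav counts in control and 22.0% ± 0.949 in CCl4 libraries, between 20.8% and 23.7% in all 8. Liver Tconv held 16.3% ± 0.586 and 14.4% ± 2.38, between 10.97% and 16.9%, below every spleen library. Treg held 12.9% ± 1.45 and 10.7% ± 1.83 in liver and 15.8% ± 1.47 and 14.4% ± 1.25 in spleen (SD, n = 3 and 5 for each pair). The identical Trav14d-1 and Trav14n-1 each held 3.76%, 5.00% and 4.20% in control and 3.20%, 4.05%, 3.96%, 3.51% and 3.41% in CCl4 libraries of spleen Tconv. In liver Tconv they held 1.88%, 1.57% and 2.23% in control and 1.59%, 2.23%, 1.91%, 1.58% and 1.30% under CCl4, which is lower in every library. The log2 difference of liver from spleen in Tconv was -1.31 (SE 0.17, adjusted p = 1.32e-07) on the CPM scale and -1.13 (adjusted p = 2.71e-07) on the share scale. The identical Trav14d-2 and Trav14n-2 were also lower in liver Tconv (-0.72, adjusted p = 0.000101, and -0.52, adjusted p = 0.00318).

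Liver Treg differed from spleen Treg in both directions. Trav7-4 was higher in liver (0.59, adjusted p = 0.000458 on the CPM scale, and 0.66, adjusted p = 1.2e-05, on the share scale), as was Trav3-4 (1.52, adjusted p = 0.00339). This contrast averages both treatments. The mean share of Trav7-4 in Treg was 5.53% in liver and 4.59% in spleen of control mice, and 11.3% and 5.47% under CCl4. That of Trav3-4 was 0.364% and 0.256% in control and 3.24% and 0.522% under CCl4. For both segments the gap between the tissue means was wider under CCl4, and that difference between treatments was not tested. Trav14-1 (-0.63, adjusted p = 0.00102) and Trav14-3 (-0.67, adjusted p = 0.00102) were lower in liver. Trav6-5 was higher in liver in Treg (0.46, adjusted p = 0.0254) and in Tconv (0.61, adjusted p = 0.00418), with shares of 0.945% to 2.83% in liver Treg, 1.30% to 2.70% in liver Tconv and 1.07% to 1.67% in all spleen libraries. The Treg call of Trav6-5 was lost without liver Treg control sample 1 (adjusted p = 0.0525) or 3 (adjusted p = 0.0893), CCl4 sample 2 (adjusted p = 0.0567) or spleen Treg control sample 2 (adjusted p = 0.0714). On the CPM scale 5 segments were higher and 17 lower in liver Treg than in spleen Treg, where 30.1% of all genes were higher and 30.5% lower. In Tconv 3 were higher and 21 lower, against 27.2% and 27.7% of all genes. On the share scale these counts were 6 and 11 in Treg (29.8% and 22.9% of all genes) and 6 and 4 in Tconv (32.7% and 12.3% of all genes), where the median of all genes moved to 0.11 and 0.23. On both scales a smaller part of the segments than of all genes was called in either direction. The higher call of Trav3-4 in liver Tconv on the CPM scale (1.03, adjusted p = 0.0444) was lost without liver Tconv CCl4 sample 2 (0.40, adjusted p = 0.281), without liver Tconv control sample 1 or 3 (adjusted p = 0.0568 and 0.122), and without spleen Tconv control sample 1 or 3 or any 1 of CCl4 samples 2 to 5 (adjusted p from 0.0548 to 0.105). Without spleen Treg control sample 1, 13 segments were called in Treg, and without spleen Tconv control sample 1, 15 in Tconv.

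**Figure D4:**
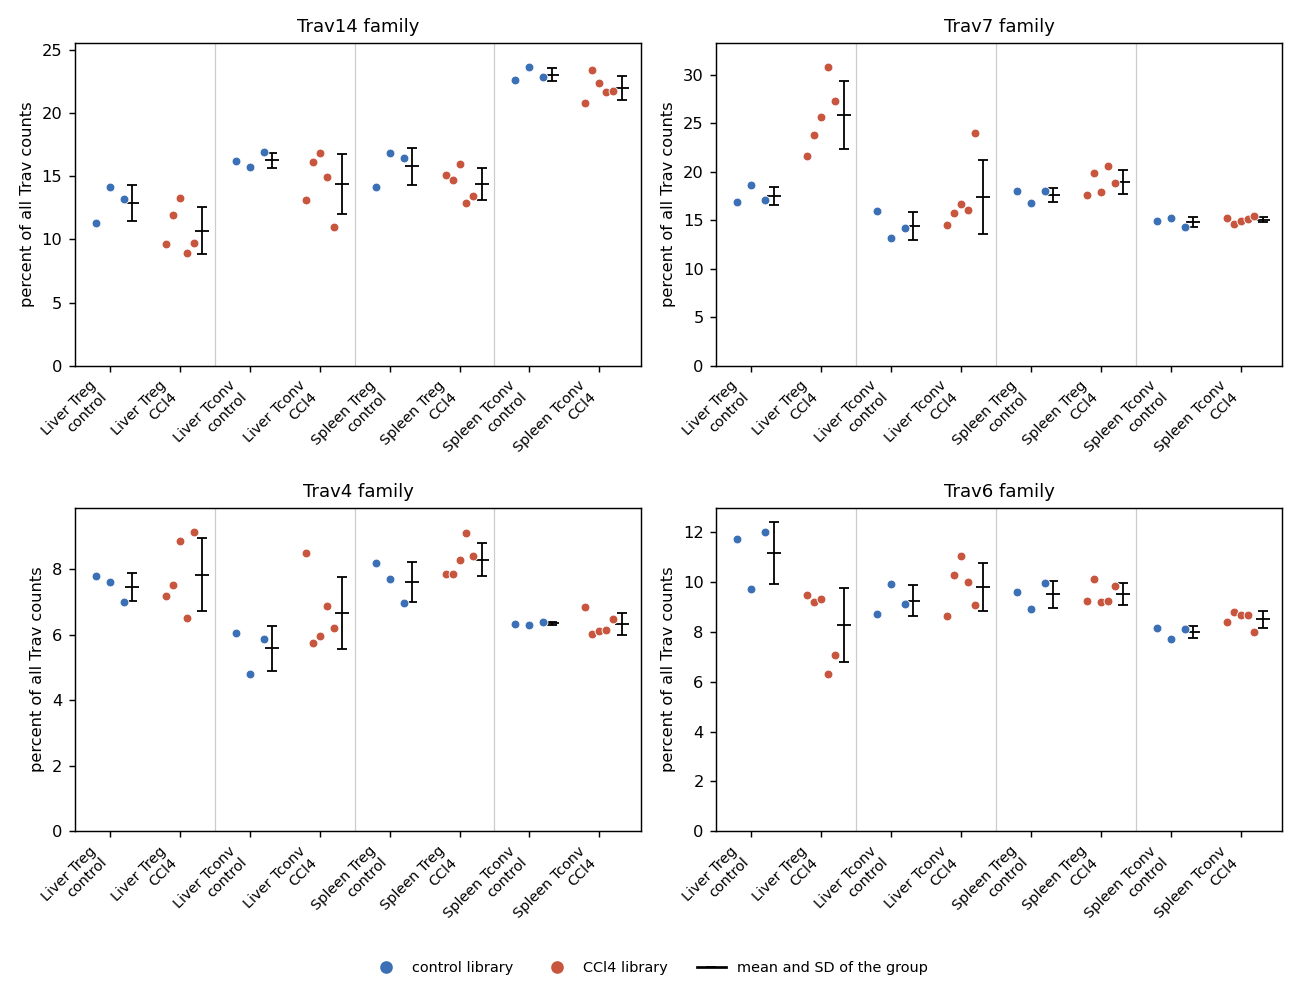
Summed share of the Trav14, Trav7, Trav4 and Trav6 families (percentage of Trav counts, vertical axes) in each library (points), by group (horizontal axes), with group means and SD. Trav14 is lower in liver Tconv (10.97% to 16.9%) than in spleen Tconv (20.8% to 23.7%) without overlap, and Trav7 is higher in CCl4 than in control liver Treg (21.7% to 30.9% against 16.8% to 18.6%).

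Treg and Tconv of the same tissue also differed in segment use. Of the 9 Trav14 segments, all of which were tested, 7 were lower and 0 higher on the CPM scale in Treg relative to Tconv of the liver, against 27.1% of all genes lower. On the share scale 4 were lower in liver, against 13.7% of all genes. In spleen 9 of 9 were lower in Treg on the CPM scale (20.3% of all genes) and 7 on the share scale (4.74% of all genes). These counts hold both members of the identical pairs Trav14d-1 and Trav14n-1, and Trav14d-2 and Trav14n-2, whose values are not independent. Called on both scales were Trav14-1 (-1.05, adjusted p = 1.6e-06) and Trav14-3 (-1.07, adjusted p = 3.72e-06) in liver, and Trav14d-3-dv8 (-1.02, adjusted p = 4.75e-06) and the pair Trav14d-2 and Trav14n-2 (-0.86, adjusted p = 1.37e-05) in spleen, with values on the CPM scale. The identical Trav14d-1 and Trav14n-1 were not called in liver on either scale (-0.16, adjusted p = 0.453, on the CPM scale, and 0.05, adjusted p = 0.798, on the share scale). Trav5-4 was lower in Treg in both tissues (-0.67 in liver and -0.69 in spleen). In liver Trav7-4 was higher in Treg (0.80, adjusted p = 1.28e-05, and 1.00, adjusted p = 1.01e-08, on the share scale). In spleen it was not called on the CPM scale (0.18, adjusted p = 0.322) and was called on the share scale (0.51, adjusted p = 0.000364).

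The identical pair Trav4d-4 and Trav4n-4 had a higher share in Treg than in Tconv. In spleen each held 1.79% to 2.93% in the 8 Treg libraries and 1.43% to 1.53% in the 8 Tconv libraries, without overlap (0.51, adjusted p = 0.000183 on the share scale, and 0.18, adjusted p = 0.221, on the CPM scale). In liver Treg each held 1.55% to 2.33%, and in liver Tconv 1.00% to 1.60% (0.58, adjusted p = 3.62e-05, and 0.37, adjusted p = 0.00677). Trav8n-2 was higher in Treg in liver (0.52, adjusted p = 0.0183, and 0.73 on the share scale) and on the share scale in spleen (0.55, adjusted p = 0.00427). Its liver call on the CPM scale was lost without liver Treg control sample 3 (adjusted p = 0.056) or liver Tconv control sample 2 (adjusted p = 0.0588). In liver 4 segments were higher and 23 lower in Treg on the CPM scale (24.7% and 27.1% of all genes) and 11 and 8 on the share scale (32.2% and 13.7% of all genes). In spleen 0 were higher and 19 lower on the CPM scale (19.4% and 20.3% of all genes) and 12 and 9 on the share scale (38% and 4.74% of all genes). The median segment stood at -0.26 in liver and -0.28 in spleen on the CPM scale, against 0.01 for all genes. On the share scale the median of all genes moved to 0.23 and 0.35, and the median segment stood at -0.04 and 0.04. The direction of a segment with a small difference between Treg and Tconv therefore depends on whether all RNA or Trav RNA is the reference.

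The difference between tissues itself differed between Treg and Tconv for 4 segments on the CPM scale, 3 higher and 1 lower (7.02% and 12.4% of all genes). It was larger in Treg for Trav7-4 (0.63, SE 0.19, adjusted p = 0.0207, and 0.50, adjusted p = 0.0283, on the share scale). With copies of Trav7-4 summed it was not called (0.47, adjusted p = 0.198). For Trav14d-1 and Trav14n-1 it was 0.84 (SE 0.23, adjusted p = 0.0109, and 0.71, adjusted p = 0.0186). Summed with Trav14-1 it was not called (0.54, adjusted p = 0.0578). Since 67.5% of the words of Trav14-1 are its own, that sum cannot tell whether the split between copies matters. Trav14d-1 and Trav14n-1 were lower in liver by -1.31 in Tconv and by -0.47 in Treg. The Treg difference was not called without liver Treg control sample 1 (-0.41, adjusted p = 0.0517). For Trav5-1 it was -0.96 (adjusted p = 0.0408).

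Shares were also summed by copy block, by position and by family. Segments with the letter d averaged 23.5% to 28.2% of Trav counts over the 8 groups, those with the letter n 20.6% to 24.2%, and those with neither 48.0% to 55.9%. The 32 segments in order along the locus from Trav5n-3 to Trav13-1 held 33.2% to 40.4% of the counts. In liver Treg under CCl4 the Trav7 family went from 17.5% ± 0.966 to 25.8% ± 3.51 of Trav counts, the Trav6 family from 11.2% ± 1.24 to 8.28% ± 1.48 and the Trav9 family from 11.6% ± 0.595 to 9.24% ± 0.931 (SD, n = 3 and 5). The summed share of the Trav7-4 copies alone went from a mean of 7.56% ± 0.955 to 17.2% ± 2.90. Such a rise lowers the shares of other families by arithmetic, and its part in the falls of Trav6 and Trav9 was not tested.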

How the data were processed

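RNA of sorted T cells was sequenced from 32 libraries in 8 groups of 3 or 5. Cells were sorted into Trizol, RNA was extracted with a Qiagen kit, and cDNA was made with the Clontech Ultra Low v4 kit and NexteraXT, per the labels. Per the submitters' processing notes, bcl2fastq 2.19, kallisto 0.44.0, genome build GRCm38.p6 and DESeq2 without a version were used, and the annotation release is not given in the sources used here. The deposited tables hold, per the file headers, the estimated count and the TPM of each transcript as kallisto gave them to the authors.

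Transcripts were matched to GENCODE M21 names (98.5%), and the 1761 unmatched of 118489 held 0.684% to 0.823% of counts and were left out. Estimated counts were summed to genes and rounded for edgeR 4.0.16 in R 4.3.3 (filterByExpr, TMM, 1 fit of the 8 groups, 24 residual degrees of freedom, common biological coefficient of variation 0.285). The share scale uses all Trav counts as library size. The Trav11 pair was compared by two-sided exact permutation tests of the difference of means, within treatment for tissue and cell type, adjusted over the 8 comparisons. Standard errors are approximate, from the quasi-likelihood F statistic. Other tools were Python 3.11.15, pandas 2.3.3, scipy 1.17.1, DESeq2 1.42.0 and matplotlib 3.10.9. The fit was tested on simulated data.

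Segments were named by a rule: Trav11, Trav11d and Trav1, the 10 largest mean shares, up to 5 of smallest adjusted p in each direction and comparison, and the leading segment of each library. Segments in the paragraph on single libraries, Trav5-1, and those called on the share scale were named after their values were seen. The members and lists were chosen with earlier results of these data known. Alternatives were DESeq2 size factors, no filter on low counts, the Trav total as library size, a fit of the compared groups alone, DESeq2, copies summed, a replicate block, leaving out each library or the spleen controls 2 and 3, and for the Trav11 pair also CPM, TPM, Trav11 alone and a log2 scale.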

Additional observations from a re-analysis of the deposited data

Results flagged for a closer look

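Single libraries stood far from the others of their group in 16 of 120 combinations of item and group. The test was Dixon's, at its 95% critical value for 5 libraries. Of the 30 items, 29 were named segments, some of them chosen from these data for leading a library or being called. The count of 16 can therefore not be set against a chance rate. Identical copies are counted separately here. In liver Tconv under CCl4, sample 5 held 10.3% for Trav7d-4 and 6.74% for Trav9-1 (3.55% to 3.95% in the others), and its effective number of segments was 36.7 (57.2 to 65.0 in the others). Sample 2 of that group held 3.35% for Trav3-4. In liver Treg under CCl4, sample 2 held 3.01% for Trav7n-4 (0.509% to 1.22%) and 2.59% for Trav14d-3-dv8 (1.03% to 1.46%), and sample 4 held 4.47% for Trav10 (1.72% to 2.27%). In spleen Treg under CCl4, sample 4 held 1.28% for Trav1 (0.382% to 0.624%), 6.10% for Trav7-4 (5.23% to 5.45%) and 2.93% for each of Trav4d-4 and Trav4n-4 (2.12% to 2.28%), and sample 2 held 1.69% for Trav7n-4. In spleen Tconv under CCl4, sample 1 held 0.258% for Trav3-4 (0.180% to 0.202%), sample 2 held 1.54% for each of Trav14d-2 and Trav14n-2 (1.17% to 1.24%), and sample 3 held 0.861% for Trav8n-2 (0.614% to 0.670%).

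Effects that differed between populations by edgeR's test of the difference were those of tissue, Treg minus Tconv, on Trav7-4 (0.63, adjusted p = 0.0207) and on Trav14d-1 and Trav14n-1 (0.84 each, adjusted p = 0.0109). With copies summed neither was called (0.47, adjusted p = 0.198, for Trav7-4 and 0.54, adjusted p = 0.0578, for Trav14-1). The latter sum adds Trav14-1, of whose words 67.5% are its own, to the identical pair, so it cannot tell whether the split between copies matters. The CCl4 effect on Trav7-4 differed by 1.10 between liver Treg and liver Tconv (adjusted p = 0.0169). That difference was not called with the Trav total as library size (0.78, adjusted p = 0.0541) or with copies summed (0.95, adjusted p = 0.146).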

How the results depend on the processing

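For named segments called in the main fit, 1191 values under the alternatives kept their direction and their side of the threshold, 122 no longer passed it, and 0 reversed. The alternatives with copies summed are not part of this count. Most settings in it leave out a single library. With the Trav total as library size 43 calls were kept and 19 lost, without the spleen controls 2 and 3, 24 and 13, and with the compared groups fitted alone 51 and 11. With DESeq2 61 were kept and 1 lost. Values here are percentage points for the Trav11 pair and numbers of segments called for the rest, and where a count moved the cause was not tested unless the setting itself gives it. Where no share of all genes stands beside a count, that share was not kept, so the count cannot be set against it.

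The Trav11 pair reversed in spleen Treg under CCl4 with Trav11 alone (0.123, against -0.0942 for the sum), and between liver and spleen Treg on the log2 scale with 0.01 added (-0.0345) and without liver Treg control sample 1 (-0.0193). None of these differences was past the threshold. Leaving out each library gave -7.87 to -3.98 for the Trav11 pair in liver Tconv under CCl4, where the value without control sample 2 is the smallest, and -0.0193 to 0.0847 between liver and spleen Treg. Without a filter on low counts 10 segments were called in liver Treg and 0 in liver Tconv under CCl4 (29 at an unadjusted p under 0.05). With the compared groups fitted alone, which leaves fewer residual degrees of freedom, the counts were 8 and 0 there and 17 for Treg against Tconv in liver. DESeq2 called 6 in liver Tconv under CCl4. With the Trav total as library size 10 were called for liver against spleen in Tconv, against 32.7% of all genes higher and 12.3% lower.

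With copies summed, which leaves 49 of 57 groups to test, 10 were called in liver Treg (14.9% of all genes) and 1, Trav11 and lower, in liver Tconv (0.31%) under CCl4. For liver against spleen 14 were called in Treg (60.8% of all genes) and 13 in Tconv (55.1%). For Treg against Tconv 16 were called in liver (52% of all genes) and 12 in spleen (39.8%). With copies summed and the Trav total as library size, a setting chosen after seeing the data, 9 were called in liver Treg under CCl4 (53.7% of all genes). These counts were 11 and 9 for liver against spleen (52.9% and 45.2% of all genes), and 10 and 11 for Treg against Tconv (45.9% and 42.8%). Without the spleen controls numbered 2 and 3, known from an earlier look to stand apart, 10 and 11 were called for liver against spleen in Treg and Tconv and 9 for Treg against Tconv in spleen. Leaving out each library gave 9 to 17 in liver Treg and 0 to 4 in liver Tconv under CCl4, 13 to 26 and 15 to 25 for liver against spleen in Treg and Tconv. The 0 in liver Tconv came without control sample 1, 2 or 3 or CCl4 sample 4.

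Sample numbers are shared across groups, but the labels do not say what a number marks. Over genes of at least 5 CPM, deviations of control libraries matched best with their own number in 18 of 18 cases (lowest r 0.0422) and those of CCl4 libraries in 20 of 30 (lowest r -0.0796). Over the Trav segments, same-numbered CCl4 libraries of liver and spleen had r of 0.227 to 0.321 in Treg and of 0.124 to 0.441 in Tconv, with 5 of 5 best matches in each. In no comparison was every same-numbered correlation over 0.1 in both treatments, so pairing was not assumed. The matches are a hint from the data, not the design, that numbers may mark something shared. A replicate block gave 14 and 2 segments called under CCl4 in liver Treg and Tconv, 0 in each spleen population, 25 and 24 for liver against spleen in Treg and Tconv, and 31 and 18 for Treg against Tconv in liver and spleen. As paired differences with sign flips, the Trav11 pair in liver Tconv fell by 6.55 under CCl4 (exact p = 0.25, the smallest that 3 pairs allow).

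At the lowest Trav depth a share of 1% is known to within 0.804% to 1.22%, so segments of smaller share have a larger relative counting error.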
